A study of Mus musculus with 6 samples.

Results

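Purinergic receptors and ectonucleotidases are the receptors for extracellular nucleotides and adenosine and the surface enzymes that turn the one into the other. The 10 genes described here were set by name. They are the ATP-gated channels P2rx4 and P2rx7, the nucleotide receptors P2ry2, P2ry6, P2ry12, P2ry13 and P2ry14, the ectonucleotidases Entpd1 (CD39) and Nt5e (CD73), and the adenosine receptor Adora2b. All 10 were present among the 55335 gene identifiers of the table.

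RNA was sequenced from 6 libraries of mouse primary microglia after 24 h of direct co-culture with neutrophils. The microglia came from whole brains of neonatal C57BL/6 mice, were labelled WT in all libraries and were shaken off mixed cultures on day 14. The neutrophils were taken by magnetic sorting from the spinal cords of adult male mice at 3 days post-injury (dpi), after a contusion. The donors carried Cd177, a surface protein gene of neutrophils, in the WT group (3 libraries) or lacked it in the whole animal in the KO group (3 libraries). Microglia were then sorted by flow cytometry as Ly6G- cells. The groups are thus labelled by the genotype of the neutrophils, not of the cells sequenced. Microglia without neutrophils were not analysed here, so levels are described only with one neutrophil genotype against the other. Nothing in the labels says that the libraries of a group came from separate cultures, so p-values measure only the spread between these libraries, which may be technical.

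Injured and dying cells release ATP, which opens P2X channels and activates G protein-coupled P2Y receptors on microglia. Entpd1 removes phosphates from ATP and ADP to give AMP, Nt5e turns AMP into adenosine, and adenosine then acts on its own receptors, among them Adora2b. In microglia of the healthy brain P2ry12 is a defining gene, whose ADP receptor guides processes towards sites of injury, whereas P2rx7 is best known for its role in inflammasome activation and interleukin-1 release. P2ry6 is a UDP receptor linked to phagocytosis, P2ry13 a further ADP receptor and P2ry14 a receptor for UDP-sugars.

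In the microglia, 6 of the 10 genes reached a mean of 1 FPKM (fragments scaled to transcript length and to the mapped fragments of the library), the minimum for testing. Entpd1 rose and Adora2b fell with KO neutrophils. P2rx7 had a higher mean with KO neutrophils but missed the threshold, P2rx4 had a slightly lower mean, and for P2ry2 and P2ry6 the groups overlapped. P2ry12, P2ry13, P2ry14 and Nt5e were at or near 0 in both groups. In such libraries, fewer cells that express a gene and less of its RNA per cell cannot be told apart. By limma on log2(FPKM + 1), 2 of the 6 tested members were called at an adjusted p under 0.05, 1 higher and 1 lower. Over all 11395 genes tested, 43.3% were called, 24.5% higher and 18.8% lower, so the share of members called was no larger than that of all genes. No tested member passed both the adjusted threshold and a fitted change of 2-fold, which 2.53% of all tested genes did. In 4 of the 6 tested members the groups did not overlap, against 55.8% of all tested genes.

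The sequences before the start sites of Adora2b and Entpd1 are shown because these are the members that changed. RefSeq promoter windows (GRCm38.p6) were found for 9 of the 10 members. The 250 bases before the start are printed 5′ to 3′ on the plus strand, the strand of both genes. Capitals mark matches, on either strand, to the letters GGGCGG (GC box), TGACG (the core of the cAMP response element), GAGGAA (the PU.1 core), ACGTG (the HIF core), TGANTCA (AP-1) or GGANTTTCC (NF-kB). None of these matches overlapped another in the sequences shown.
Adora2b, chr11:62248734-62248983: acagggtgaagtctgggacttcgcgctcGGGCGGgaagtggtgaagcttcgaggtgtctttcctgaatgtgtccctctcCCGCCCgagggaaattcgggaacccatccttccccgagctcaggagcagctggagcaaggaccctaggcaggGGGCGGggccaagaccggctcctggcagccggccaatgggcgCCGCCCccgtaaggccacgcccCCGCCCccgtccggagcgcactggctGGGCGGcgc
Entpd1, first start, chr19:40612116-40612365: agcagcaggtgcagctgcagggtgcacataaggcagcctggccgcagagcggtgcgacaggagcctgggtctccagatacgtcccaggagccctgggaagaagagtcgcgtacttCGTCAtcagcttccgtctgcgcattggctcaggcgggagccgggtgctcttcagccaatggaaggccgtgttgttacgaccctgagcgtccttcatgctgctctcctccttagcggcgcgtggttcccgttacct
Entpd1, second start, chr19:40659520-40659769: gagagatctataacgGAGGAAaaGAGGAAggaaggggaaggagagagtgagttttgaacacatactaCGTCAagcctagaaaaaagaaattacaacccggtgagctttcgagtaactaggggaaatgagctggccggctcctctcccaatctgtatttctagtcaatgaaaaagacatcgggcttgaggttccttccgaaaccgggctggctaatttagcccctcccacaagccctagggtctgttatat

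The Adora2b window held 69.6% G and C, against a median of 52.4% over all promoters, and 6 GC boxes, the nearest beginning 9 bases before the start. A GC box was present in 32.7% of all 32841 promoter windows of this length. The first Entpd1 window held 62.4% G and C and 1 cAMP response element core, 135 bases before the start. The second held 47.2% G and C, 2 PU.1 cores and 1 cAMP response element core, and it lies inside the annotated Entpd1 gene. PU.1 cores occurred in 23.3% of all promoters and cAMP response element cores in 17.8%. The letters searched for HIF (16.6% of promoters), AP-1 (6.75%) and NF-kB (1.07%) had no match in the 3 windows. These matches describe letters in a window and were not tested for use in these cells.

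**Figure D1:**
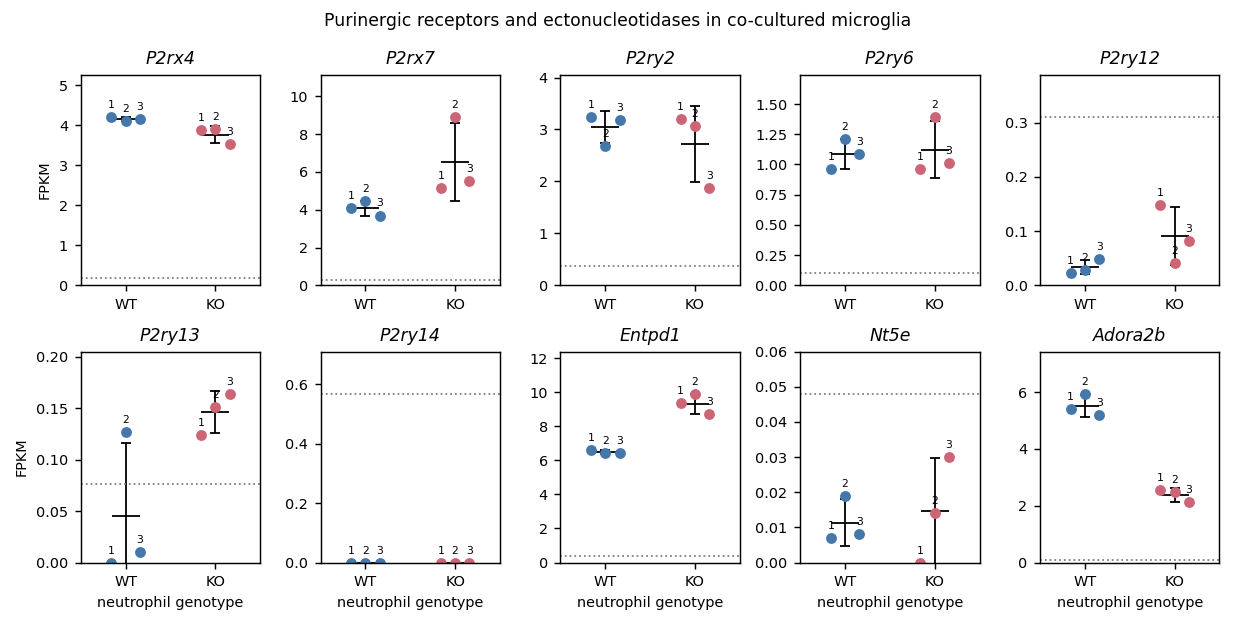
FPKM of the 10 members in each of the 6 libraries, with panels scaled separately from 0. Points are libraries numbered 1 to 3, bars are mean and SD, and the dotted line is the level of 3 fragments. Entpd1 and Adora2b separate the groups in opposite directions, KO library 2 stands high for P2rx7, and 3 of the 4 weakest members lie wholly under the dotted line.

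Of the ATP-gated channels, P2rx7 (chromosome 5, 122643911 to 122691432, plus strand, GRCm38, GENCODE M21) had 4.06, 4.45 and 3.69 FPKM in the WT group, against 5.13, 8.92 and 5.54 FPKM in the KO group. All KO libraries lay above all WT libraries, and KO library 2 stood well above the other KO libraries. The means were 4.07 ± 0.378 and 6.53 ± 2.08 FPKM (SD, n = 3 each), a ratio of 1.60. The log2 change was 0.54 (SE 0.184, 95% interval 0.09 to 0.98), and the limma adjusted p of 0.056 missed the threshold. Without KO library 2 the change was smaller, 0.32, and passed it (limma adjusted p = 0.0322). Without KO library 1 the change was 0.67 (limma adjusted p = 0.0411), and over all alternatives run the limma adjusted p ranged from 0.0322 to 0.14. The coefficient of variation (SD over mean) of P2rx7 in the KO group was 31.8%, above the 95th percentile of 29.2% for genes of 2 to 10 FPKM. An exon of the microRNA gene Mir8115 overlaps P2rx7 on the same strand, so its fragments could be counted to either.

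P2rx4 (chromosome 5, 122707544 to 122729738, plus strand), which encodes a channel known for its induction in microglia after nerve injury, lies 16.1 kb from P2rx7. Its FPKM was 4.22, 4.10 and 4.16 with WT and 3.88, 3.91 and 3.53 with KO neutrophils. Every KO library was below every WT library, by a small margin. The means of 4.16 ± 0.0595 and 3.77 ± 0.210 FPKM (SD, n = 3 each) gave a log2 change of -0.11 (SE 0.052, 95% interval -0.24 to 0.01, limma adjusted p = 0.125). The WT coefficient of variation of 1.43% was under the median of 6.53% for genes of 2 to 10 FPKM. With WT neutrophils the libraries of P2rx4 and P2rx7 overlapped in level, and with KO neutrophils all libraries of P2rx7 were above those of P2rx4. Near the pair on chromosome 5, the kinase gene Camkk2 and the histone demethylase gene Kdm2b rose and Ift81, of intraflagellar transport, was not called. These 2 of 3 neighbours stand beside the 43.3% of all tested genes that were called.

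Of the P2Y receptors, P2ry2 (chromosome 7, 100996568 to 101012866, minus strand), a receptor for ATP and UTP, showed 3.25, 2.69 and 3.19 FPKM beside WT neutrophils and 3.21, 3.07 and 1.88 FPKM beside KO neutrophils. The groups overlapped, and KO library 3 was lower than the other 5. The log2 change was -0.14 (SE 0.156, 95% interval -0.51 to 0.24, limma adjusted p = 0.513). Without KO library 3 it was 0.04, so its direction rested on that library.

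P2ry6 (chromosome 7, 100937630 to 100974649, minus strand) was the weakest of the tested members, near the filter. It had 0.96, 1.21 and 1.09 FPKM in the WT libraries and 0.96, 1.40 and 1.01 in the KO libraries, with overlapping groups. The log2 change was 0.02 (SE 0.102, 95% interval -0.23 to 0.27, limma adjusted p = 0.889). P2ry6 lies 21.9 kb from P2ry2. Of 6 listed genes around the pair, 4 were tested and 1 was called, where 43.3% of all tested genes were called and 18.8% fell. It was Rab6a, a Golgi trafficking GTPase, which fell. Rab6a ends at 100641268 and is not adjacent to the pair.

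The 3 other P2Y members lie on chromosome 3, all within the span of Med12l. P2ry12 (59216272 to 59262871, minus strand) had 0.023, 0.029 and 0.049 FPKM in the WT group, against 0.148, 0.042 and 0.081 FPKM in the KO group. All 6 values were under 0.311 FPKM, the level of 3 fragments for the shortest of its 5 coding transcripts, of 619 bases. That level would be lower for a longer transcript, so whether P2ry12 was detected cannot be settled. The groups overlapped. An exon of Med12l on the opposite strand overlaps P2ry12, and whether counting used strand is not given in the sources used here.

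P2ry13 (59207892 to 59210882, minus strand) showed 0, 0.127 and 0.01 FPKM beside WT neutrophils and 0.124, 0.151 and 0.164 FPKM beside KO neutrophils. The level of 3 fragments was 0.076 FPKM, which 1 WT library and all 3 KO libraries passed. WT library 2 lay within the KO range, and the exact two-sided permutation test of the means gave p = 0.2. P2ry14 (59113855 to 59153618, minus strand) was listed at 0 in all 6 libraries, where 3 fragments would be 0.568 FPKM. In the same cluster Gpr171 was listed at 0 in all libraries. P2ry1, a further ADP receptor, lies outside this cluster on the same chromosome and rose.

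Of the ectonucleotidases, Entpd1 (chromosome 19, 40612366 to 40741602, plus strand) had the highest mean of the members in both groups. It had 6.60, 6.41 and 6.44 FPKM in the WT libraries and 9.38, 9.90 and 8.72 in the KO libraries. All KO libraries were above all WT libraries, and the gap between groups was wider than the range of either. The means of 6.48 ± 0.107 and 9.33 ± 0.593 FPKM (SD, n = 3 each) had a ratio of 1.44. The log2 change was 0.46 (SE 0.052, 95% interval 0.34 to 0.59, limma adjusted p = 0.000715). It ranged from 0.42 to 0.52 over the alternatives, with a highest limma adjusted p of 0.00572. Among tested genes its level moved from the 43.8th to the 56.0th percentile.

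Nt5e (chromosome 9, 88327197 to 88372092, plus strand), which encodes the enzyme that makes adenosine from AMP, had 0.007, 0.019 and 0.008 FPKM in the WT group, against 0, 0.014 and 0.03 FPKM in the KO group. All were under the 0.048 FPKM of 3 fragments. RNA of Entpd1, of the first step, was thus present, and that of Nt5e was not detected at this depth in either group. Protein was not measured in these libraries. Alpl, another nucleotide-hydrolysing enzyme, had means of 6.11 and 6.57 FPKM with WT and KO neutrophils.

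Adora2b (chromosome 11, 62248984 to 62266453, plus strand) encodes a low-affinity adenosine receptor that raises cyclic AMP. It showed 5.40, 5.93 and 5.20 FPKM beside WT neutrophils and 2.56, 2.47 and 2.12 FPKM beside KO neutrophils. The lowest WT library was above the highest KO library by more than the range of either group. The means of 5.51 ± 0.380 and 2.38 ± 0.233 FPKM (SD, n = 3 each) differed 2.31-fold. On the log2(FPKM + 1) scale the change was -0.95 (SE 0.074, 95% interval -1.13 to -0.77, limma adjusted p = 0.000153), a fitted fold of 1.93, since the pseudocount shrinks changes of low genes. With a pseudocount of 0.1 FPKM, or on the TPM scale, the fitted change passed 2-fold. Over the alternatives it ranged from -1.18 to -0.89, with a highest limma adjusted p of 0.00139. Its level moved from the 38.6th to the 15.9th percentile of tested genes.

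For Adora2b, Entpd1, P2rx4 and P2rx7 exact permutation of the libraries (two-sided, difference of means) gave p = 0.1, the smallest that 3 libraries against 3 allow.

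**Figure D2:**
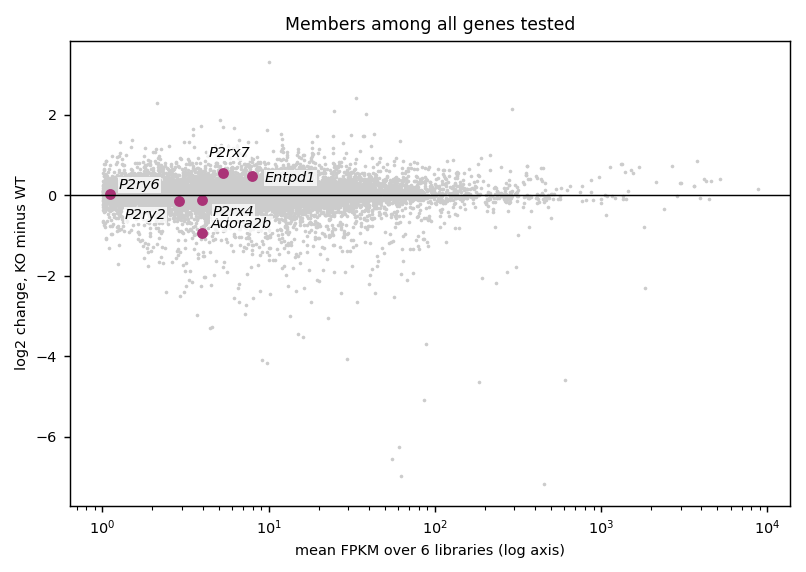
Fitted log2 change, KO minus WT neutrophils, against mean FPKM over the 6 libraries (log axis) for the 11395 genes tested (grey), with the 6 tested members in colour. Adora2b lies low at -0.95, Entpd1 and P2rx7 lie high at 0.46 and 0.54, and all 6 members have modest levels.

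FPKM is per length, so the members can be ordered by level within a group. With WT neutrophils the order was Entpd1, Adora2b, P2rx4, P2rx7, P2ry2, P2ry6, P2ry13, P2ry12, Nt5e and P2ry14. The last 4 are levels near or under 3 fragments. Neighbours in this order had separate libraries, except P2rx4 with P2rx7 and P2ry13 with P2ry12. With KO neutrophils Adora2b moved from the second to the fifth place, below P2ry2, whose libraries it overlapped. P2rx7 moved up to the second place, and its highest library passed the lowest of Entpd1.

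The other genes of the pathway were taken from a list of 45 genes, of which 21 were tested and 24 were under the filter, 15 of these at 0 in all libraries. Of the 21, 11 were called, where 8 rose and 3 fell, beside the 43.3% of all tested genes. The 11 include Slc28a2 and P2rx3, which reached the filter only through the group where they are higher. With no filter Slc28a2 kept its call and P2rx3 lost it (limma adjusted p = 0.000677 and 0.0758). The median log2 change of the 21 was 0.09, that of the 6 tested members -0.04 and that of all tested genes 0.02. Of the 11 called, 7 were called under every alternative that tested them.

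**Figure D3:**
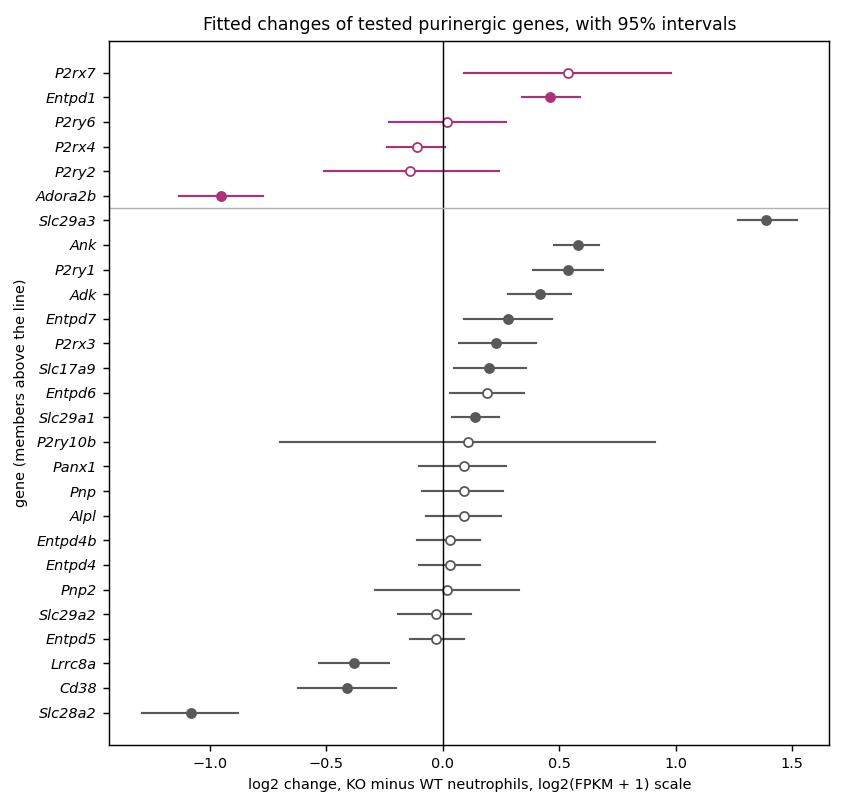
Fitted log2 change, KO minus WT neutrophils, with 95% intervals for the 6 tested members (above the line) and the 21 other tested pathway genes. Filled points were called at a limma adjusted p under 0.05. Slc29a3 has the largest rise at 1.39 and Slc28a2 the largest fall at -1.08. Slc28a2 reached the filter only through the WT group and P2rx3 only through the KO group.

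The largest changes on this list were those of nucleoside transporters. Slc29a3, the nucleoside transporter of lysosomes, had 6.55, 6.22 and 5.74 FPKM in the WT libraries and 18.3, 17.9 and 17.3 in the KO libraries. The groups were far apart, with a ratio of means of 2.89 and a log2 change of 1.39 (limma adjusted p = 6e-06, SE 0.052). Slc28a2, a sodium-driven carrier of purine nucleosides, had 1.87, 1.81 and 1.66 FPKM in the WT group, against 0.32, 0.211 and 0.408 FPKM in the KO group. Its means differed 5.69-fold, with a log2 change of -1.08 (limma adjusted p = 0.00015, SE 0.085). It reached the filter of 1 FPKM only through the WT group, and with no filter the limma adjusted p was 0.000677. The change was -2.21 with a pseudocount of 0.1 and -1.77 when rescaled to TPM. Slc29a1, the main equilibrative carrier of the surface, rose by 0.14 (limma adjusted p = 0.0398), a call lost under 10 of 14 alternatives. Leaving out any 1 of the 6 libraries ended this call, at changes of 0.11 to 0.16 and limma adjusted p of 0.0508 to 0.108. Slc29a2 was not called and Slc29a4 was listed at 0, so 3 of the 4 tested carriers were called, Slc29a1 included, beside 43.3% of all tested genes.

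Among genes of ATP release and pyrophosphate export, Ank, a membrane protein that exports ATP and pyrophosphate, rose from 25.5 ± 0.949 FPKM with WT neutrophils to 38.5 ± 1.26 FPKM with KO neutrophils (SD, n = 3 each). Its log2 change was 0.58 (limma adjusted p = 7.6e-05, SE 0.039). Lrrc8a, the obligatory subunit of the volume-regulated anion channel, whose exons the gene model Gm28035 overlaps on the same strand, fell by 0.38 on the log2 scale (limma adjusted p = 0.00394). Slc17a9, the vesicular nucleotide transporter, rose by 0.20 (limma adjusted p = 0.0458), a call lost under 9 of 13 alternatives. It too was lost without any 1 of the 6 libraries, at changes of 0.16 to 0.23 and limma adjusted p of 0.0607 to 0.127. The ATP release channel Panx1 was not called, with means of 2.31 and 2.52 FPKM.

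Of the adenosine and purine enzymes, Adk, the kinase that returns adenosine to AMP, showed 5.70, 5.12 and 5.67 FPKM beside WT neutrophils and 7.33, 7.93 and 7.77 FPKM beside KO neutrophils. All KO libraries were above all WT libraries, and the log2 change was 0.42 (limma adjusted p = 0.00142, SE 0.055). Ada, which deaminates adenosine, was under the filter at 0.416 ± 0.167 and 0.943 ± 0.228 FPKM (SD, n = 3 each), with groups that did not overlap. When genes under the filter were let in, its limma adjusted p was 0.0665. Pnp and its near copy Pnp2, whose reads the counting could split, were not called. Cd38, the main NAD glycohydrolase, fell by 0.41 on the log2 scale (limma adjusted p = 0.0108), from 3.95 ± 0.367 to 2.74 ± 0.305 FPKM (SD, n = 3 each).

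Of 14 other nucleotide-hydrolysing enzymes, 6 were tested and 1 rose, where 24.5% of all tested genes rose. Entpd7, an intracellular relative of Entpd1, had a log2 change of 0.28 (limma adjusted p = 0.0291), a call lost under 6 of 13 alternatives. Among these were the fits without WT library 1 or 2 or KO library 1 or 2, with changes of 0.22 to 0.29 and limma adjusted p of 0.0641 to 0.0872. Entpd6 had a change of 0.19 (limma adjusted p = 0.0629) and passed without WT library 2, at 0.24 (limma adjusted p = 0.0305). Entpd4 and its near copy Entpd4b, Entpd5 and the alkaline phosphatase Alpl were not called. The surface enzymes Entpd2 and Entpd8 were listed at 0 in all libraries, and Entpd3 was under 3 fragments.

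Of all 20 genes named as P2X, P2Y or adenosine receptors on both lists, 8 were tested and 3 called, a share no larger than the 43.3% of all tested genes. The 20 include P2ry10 and P2ry10b, described below. Besides Adora2b, those called were P2ry1 and P2rx3. P2ry1 had 1.37, 1.38 and 1.42 FPKM in the WT libraries and 2.59, 2.29 and 2.56 in the KO libraries, a ratio of means of 1.78. The groups were well apart, with a log2 change of 0.54 (limma adjusted p = 0.000788, SE 0.062). P2rx3, a channel best known from sensory neurons, was near the filter at means of 0.862 and 1.19 FPKM, and reached it only through the KO group. Its log2 change was 0.23 (limma adjusted p = 0.0348), a call lost under 8 of 13 alternatives, among them no filter (limma adjusted p = 0.0758). The change itself ranged from 0.21 to 0.42. Only KO library 1 could be left out without losing the call. Leaving out any other gave changes of 0.21 to 0.26 and limma adjusted p of 0.0576 to 0.102. An exon of Ssrp1 overlaps it on the opposite strand.

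P2ry10b, a lysophospholipid receptor of the P2Y group, had 10.36, 3.82 and 10.46 FPKM in the WT group, against 8.41, 7.66 and 8.62 FPKM in the KO group. WT library 2 stood far below the other 5, and the log2 change was 0.11 (95% interval -0.70 to 0.91, limma adjusted p = 0.817). Without WT library 2 it was -0.31 (limma adjusted p = 0.013). P2ry10, its near copy, was listed at 0, and the counting could split reads between them.

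Of the other adenosine receptors, Adora2a showed 0.496, 0.336 and 0.476 FPKM beside WT neutrophils and 0.061, 0.035 and 0.065 FPKM beside KO neutrophils. The groups did not overlap. Only 2 WT libraries and no KO library passed the 0.444 FPKM of 3 fragments, so no fold is given. That level is for the shortest of its 4 coding transcripts, of 434 bases, and would be lower for a longer one. With the filter removed its limma adjusted p was 0.00308. Adora1 was listed at 0, and Adora3 had means of 0.0605 and 0.0549 FPKM, under its level of 3 fragments.

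**Figure D4:**
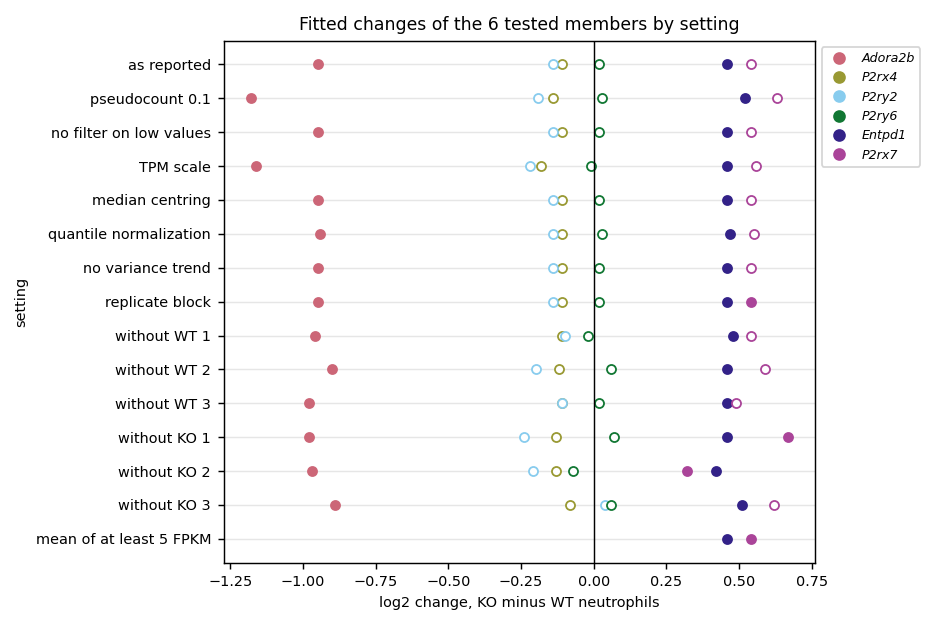
Fitted log2 change, KO minus WT neutrophils, of the 6 tested members under each setting, filled where the limma adjusted p was under 0.05. Entpd1 and Adora2b stay filled wherever they were tested, and P2rx7 turns filled under 4 of 14 alternatives, 1 of them the minimum mean of 5 FPKM, which it passed only through the KO group.

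Over the 6 libraries, the genes with at least 5 FPKM whose log2(FPKM + 1) followed Adora2b most closely were Zdhhc6, Daam1 and Ncf4, with Pearson's r of 0.9990, 0.9987 and 0.9987. The 6 points share the contrast between the groups, and r with Adora2b passed 0.95 in 11.3% of genes.

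The microglia and macrophage markers were high, with 10 of 11 at 1 FPKM or more and sums of 977 to 1024 FPKM with WT and 1095 to 1125 FPKM with KO neutrophils. Tmem119, at a mean of 0.298 and 0.712 FPKM, and P2ry12, both defining genes of microglia in the brain, were low. Tmem119 was under the 0.573 FPKM of 3 fragments in all 3 WT libraries and above it in all 3 KO libraries. Of the 10 tested by limma 5 rose and 3 fell, where 24.5% and 18.8% of all tested genes did, so the sums do not describe every marker. Cd68 rose from a mean of 372 to 491 FPKM and Trem2 from 12.0 to 28.0 FPKM. The macrophage marker Adgre1 fell from 101 to 39.3 FPKM, Fcer1g from 191 to 157 FPKM and Cx3cr1 from 2.74 to 1.14 FPKM. None of 12 neutrophil markers reached 1 FPKM in any library, and 6 of them, Ly6g, S100a9, Retnlg, Ltf, Elane and Mpo, were listed at 0 in all 6. The neutrophil sum was 1.82 to 2.02 FPKM with WT and 0.769 to 1.19 FPKM with KO neutrophils, lower in the direction of Adora2b, and its part in that fall was not tested. Astrocyte, oligodendrocyte, fibroblast and lymphocyte markers were all under 1 FPKM, and of 5 endothelial markers only Flt1 was above it, with means of 9.82 and 7.69 FPKM. Cd177 itself had 0.477, 0.113 and 0.151 FPKM in the WT libraries and 0.109, 0.022 and 0.084 in the KO libraries, too low in microglia to check the genotype of the neutrophils. Mitochondrial genes held 11.1% to 11.32% of the FPKM sum with WT and 14.31% to 14.62% with KO neutrophils, and their part in the results was not tested. The labels name no batch, so any difference in handling between the groups cannot be told apart from the genotype of the neutrophils.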

How the data were processed

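RNA-seq of 6 libraries of sorted microglia was analysed, 3 from co-culture with WT neutrophils and 3 with Cd177 KO neutrophils, and the titles gave the groups. FPKM values, as deposited by the authors in 1 table, were used with 1 column per library. The submitters' processing notes name fastp 0.17.1, HISAT2 2.1.0, DESeq2 1.18.1 and R 3.4.3 without their roles, and the program that made the FPKM values, the build, the annotation and the use of strand are not given in the sources used here. The labels and the methods name different kits and sequencers. Symbols and positions came from GENCODE M21 (GRCm38), matched for 55154 of 55335 identifiers (99.67%), and promoter windows from RefSeq (GRCm38.p6). The sequence of proteins was not analysed here.

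Genes whose mean over the libraries was 1 FPKM or more entered limma 3.58.1 (R 4.3.3) on log2(FPKM + 1), with lmFit and eBayes with a trend, KO minus WT and no covariates, and Benjamini-Hochberg adjustment over the 11395 genes. The script was tested on simulated data first. A fold on this scale understates changes of low genes. Exact two-sided permutation tests were added for single genes. The smallest common step of low values corresponded to a depth of 15.6 to 19.2 fragments per library in units of 1e+06, with 26.1% to 27.2% of low values whole within 0.05 fragments against 10.0% by spacing, so reads were not recovered and no count test was run. A floor of 3 fragments was computed from this depth and the shortest coding transcript of a gene, and covers counting error only. It would be lower for a longer transcript. No ubiquitous gene of 30 checked had a value of 0, and 30140 identifiers were at 0 in all libraries.

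Alternatives were a pseudocount of 0.1, no filter or a minimum mean of 5 FPKM, quantile normalization, median centring, the TPM scale, a fit without the variance trend, the replicate number as a block, and leaving out each library. The genes named were the 10 members, the pathway list where expressed or a receptor, listed genes near members, and the 3 genes most like the largest rise and fall among the members called. Some genes under this rule are not reported here. Cd177, cell type markers and genes whose exons overlap a named gene were named as checks. Ada, Entpd2, Entpd3, Entpd8 and Slc29a4, of the pathway list but under the filter, fall outside the rule and were named after their values were seen. Members, lists and tests were chosen with earlier results of these data known.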

Additional observations from a re-analysis of the deposited data

How the results depend on the processing

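Entpd1 and Adora2b kept their direction and call under every alternative that tested them. The number of members called was 2, or 3 with the replicate block and without KO library 1 or KO library 2, where P2rx7 was added. At a minimum mean of 5 FPKM the 2 called were Entpd1 and P2rx7 (limma adjusted p = 0.0499), since Adora2b was not tested. P2rx7 passed that minimum only through the KO group, where it is higher. The numbers do not pair the libraries (correlations of deviations -0.075, -0.052 and -0.005), and the block called 4212 genes against 4930. The number of members past 2-fold was 1, Adora2b, with a pseudocount of 0.1 and on the TPM scale. The number of other pathway genes called was 5 at a minimum mean of 5 FPKM, which left fewer genes to test, and 7 to 9 when 1 library was left out, with 7 without WT library 1 or KO library 2, against 11 as reported. It was 8 on the TPM scale, 8 with no filter and 8 with the replicate block, where Entpd6 was called (limma adjusted p = 0.0459), and 10 without the variance trend. Of 363 values of 27 genes, 311 kept direction and call, 33 lost a call, 6 gained one with the same sign and 13 changed sign. None of the 13 was of a gene called as reported, and 1 of them, P2ry10b without WT library 2, passed the threshold (limma adjusted p = 0.013). On the TPM scale the sign changed for P2ry6, Entpd4, Entpd4b and Pnp2, all at -0.01. Without single libraries it changed for P2ry2 (-0.24 to 0.04), P2ry6 (-0.07 to 0.07), P2ry10b (-0.31 to 0.32), Entpd4b (-0.00 to 0.05), Pnp2 (-0.09 to 0.11) and Slc29a2 (-0.06 to 0.00). The cause was not tested. The median change of all genes was 0.024, and -0.021 on the TPM scale. Depth limits P2ry12, P2ry14 and Nt5e, which stayed under 3 fragments of their shortest coding transcript.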
